A study of Mus musculus with 18 samples.

Results

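Axon guidance genes encode the cues and the receptors by which a growing axon or a migrating neuron is attracted or repelled. The genes described here are the semaphorins with their plexin and neuropilin receptors, the ephrins with the Eph receptors, the Slits with the Robo receptors, and the netrins with *Dcc* and the Unc5 receptors. Members were taken by gene name (Sema3 to Sema7, Plxn, *Nrp1* and *Nrp2*, Efn, Eph, *Slit1* to *Slit3*, *Robo1* to *Robo4*, *Ntn1* to *Ntn5*, *Dcc* and *Unc5a* to *Unc5d*), with no use of measured values. This gave 69 genes of 56563 named over all tables: 20 semaphorins, 9 plexins, 2 neuropilins, 8 ephrins, 14 Eph receptors, 3 Slits, 4 Robos, 4 netrins, and 5 genes of the *Dcc* and Unc5 group. Antisense transcripts of *Plxna4* with names of their own were left out, and *Ntn3* was not analysed here in cortices or *Rnf2* hippocampi, whose tables hold 68 of the genes.

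RNA was sequenced from mouse tissue and cells taken at postnatal day 0. Hippocampi of 3 controls (*Kdm2bfl/+* or *Kdm2bfl/fl*) were compared with those of 3 conditional knockouts, *Kdm2bEmx1-delta-CxxC*, in which Emx1-Cre removes the exon for the CxxC zinc finger of KDM2B. Cells of both genotypes were also grown from hippocampi as neurospheres for RNA of 2 control and 2 cKO cultures, and cortices of 2 and 2 were compared for the same alleles. A further comparison set hippocampi of 2 *Rnf2Emx1-cKO* mice against 2 controls (*Rnf2fl/+* or *Rnf2fl/fl*). Every control carried at least 1 floxed allele, and controls with 1 or 2 such alleles are not told apart. Emx1-Cre acts in progenitors of the dorsal telencephalon and their progeny, so interneurons, blood vessels, microglia and ingrowing thalamic axons of these tissues keep the intact gene. Neurospheres had been passaged in FGF2 and EGF, which select for dividing progenitors.

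KDM2B recruits a variant Polycomb repressive complex to unmethylated CpG islands through its CxxC finger, and RNF2 is the ubiquitin ligase of Polycomb repressive complex 1 that marks histone H2A. Axons of the hippocampus depend on these cues: class 3 semaphorins are secreted and act through neuropilins and plexins, ephrins are bound to the membrane and signal on contact, and Slits and netrins are secreted proteins that steer commissural and other axons. The same families also act outside axons, in blood vessels, in progenitor layers and in glia.

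The deposited values are FPKM, the fragments counted on a gene scaled to its length and to the mapped fragments of the library, so levels of different genes can be compared within a table but not across tables, which were made separately. Changes are differences of mean log2(FPKM + 1), cKO minus control, on which a given fold of a weakly expressed gene appears smaller. A gene was called where the change was above 0.4 in size with an unadjusted p under 0.05 in limma, and p values adjusted over all genes of a table are given beside it. The depth of single libraries cannot be read from the FPKM of *Kdm2b* hippocampi and neurospheres. In the cortical and *Rnf2* tables whole reads could be recovered, with 18462829 to 21883976 and 14654653 to 16334184 reads on genes per library. The labels do not say that replicates came from separate animals, so p values measure only the spread between these samples. The targeted genes were not called over the whole gene: *Kdm2b* was at 29.4 ± 2.15 in control and 27.2 ± 0.992 in cKO hippocampi (SD, n = 3 each, limma adjusted p = 0.364), and *Rnf2* was at 31.5 ± 1.02 and 28.1 ± 0.494 in its own comparison (SD, n = 2 each, adjusted p = 0.762), where both cKO libraries lay below both controls. Loss of the floxed part cannot be read from a value over the whole gene. In neurospheres the first control library stood apart, with 29.3% of its FPKM in entries that name no gene, against 0.876% to 1.95% in the other 3. By *Xist* and *Ddx3y*, 1 library differed in sex from the others of its table in *Kdm2b* hippocampi (the first cKO), neurospheres (the first cKO) and cortices (the first control), which bears on the X-linked members *Efnb1*, *Plxna3* and *Plxnb3*. In bulk tissue, fewer cells of a type and less RNA per cell cannot be told apart.

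The control hippocampus carried members of every family. Mean control FPKM was at least 10 for 42 of the 69 genes, with a median of 14.7 over all members. The semaphorin co-receptor *Nrp2* stood highest at 109 ± 8.09 FPKM, followed by *Epha4*, a receptor for ephrins of both classes, at 104 ± 8.72, and *Nrp1* at 90.9 ± 6.46 (SD, n = 3 each). *Efnb3*, a transmembrane ephrin, was at 84.3 ± 9.58, the secreted semaphorin *Sema3c* at 62.6 ± 5.35, and the semaphorin receptor *Plxna1* at 52.8 ± 2.38 FPKM. *Nrp2* and *Epha4*, and likewise *Nrp1* and *Efnb3*, differed by less than their spread, so that their order is not settled. The highest of the other families were the netrin receptor *Dcc* at 38.2 ± 2.18, the Slit receptor *Robo1* at 26.8 ± 2.75 and *Slit3* at 14.7 ± 1.79. *Ntn3*, at 33.3 ± 0.471, shares its entry with *Tbc1d24* and is uncertain, as is the *Nrp1* entry, which holds a microRNA, and the *Efna4* entry, which holds *Adam15* and *Dcst1*. *Epha1*, *Ntn5*, *Plxnb3* and *Robo3* had means under 0.5 FPKM and were not tested.

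Loss of the CxxC finger in hippocampi moved 9 of the 65 members tested. The 6 that rose were the ligands *Ntn4*, *Efna1*, *Sema3f* and *Sema5b* and the receptors *Epha10* and *Unc5b*, and the 3 that fell were *Sema3e*, *Sema4a* and *Epha5*. Members were called at 13.8%, against 6.14% of the 13445 genes tested in this table (3.89% called higher and 2.25% lower). With adjusted p values 8 of the 9 were called, all but *Epha5*, where 4.41% of all genes were. With means of at least 0.5 FPKM required in both groups the 9 were of 64 members, against 5.77% of all genes. The median change of the members was -0.03 and that of all genes 0.01, with 28 members above 0 and 37 below. When libraries were rescaled to the same FPKM total, 7 members were called higher and 1 lower, since *Sema4a* (-0.39) and *Epha5* (-0.39) came under the fold threshold and 1 other member passed it. Control and cKO libraries did not overlap for 35 of the 65 members, against 29.2% of all genes, and for all 9 of those called.

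*Ntn4* encodes a laminin-related netrin of basement membranes. It was at 1.73, 2.13 and 2.19 FPKM in the control hippocampi and at 3.89, 3.79 and 2.98 in the cKO hippocampi, a change of 0.59 ± 0.12 (SE, limma adjusted p = 0.0190). All cKO libraries lay above all controls. *Efna1*, an ephrin tethered by a lipid anchor that is also known from blood vessels, was at 3.26, 3.30 and 3.94 FPKM in controls and at 5.62, 6.28 and 5.24 in cKO. Its change was 0.58 ± 0.10 (adjusted p = 0.0119), again with no overlap. Of 6 endothelial markers none was called, and their summed FPKM was 80.8 to 107 in control and 77.6 to 98.6 in cKO hippocampi. None of 4 mural and none of 6 meningeal markers was called either. The part of these cells in the rises of *Ntn4* and *Efna1* was not tested.

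*Sema3f*, a secreted semaphorin that acts through *Nrp2* and A-class plexins, was at 4.56, 4.96 and 4.62 FPKM in controls and at 6.38, 8.41 and 7.41 in cKO hippocampi. Its change was 0.55 ± 0.10 (adjusted p = 0.0142). *Sema5b*, a transmembrane semaphorin with thrombospondin repeats, showed the least spread of the genes that rose, with 15.0, 14.8 and 14.7 FPKM in controls and 20.4, 20.6 and 19.1 in cKO. The change of 0.41 ± 0.06 (adjusted p = 0.00482) was close to the fold threshold. Neither *Nrp2* (-0.11 ± 0.07) nor *Nrp1* (-0.07 ± 0.06), the co-receptors of class 3 semaphorins, was called.

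*Sema3e*, which binds *Plxnd1* directly, fell by 0.50 ± 0.11 on the log2 scale (adjusted p = 0.0286). Its FPKM was 4.31, 5.39 and 4.25 in controls and 2.95, 2.7 and 3.33 in cKO, with the highest cKO library below the lowest control. *Plxnd1* itself was at 14.7 ± 0.503 and 15.2 ± 2.07 FPKM (SD, n = 3 each), a change of 0.04 ± 0.09. *Sema4a*, a transmembrane semaphorin, went from 6.76, 6.05 and 6.13 FPKM to 4.54, 4.25 and 4.69, a fall of 0.41 ± 0.08 (adjusted p = 0.0207). The other 16 semaphorins were not called, with changes from -0.26 (*Sema4f*, adjusted p = 0.0339) to 0.21 (*Sema4b*, adjusted p = 0.128), and *Sema3c*, the highest of them, was at 53.1 ± 9.70 FPKM in cKO.

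**Figure D1:**
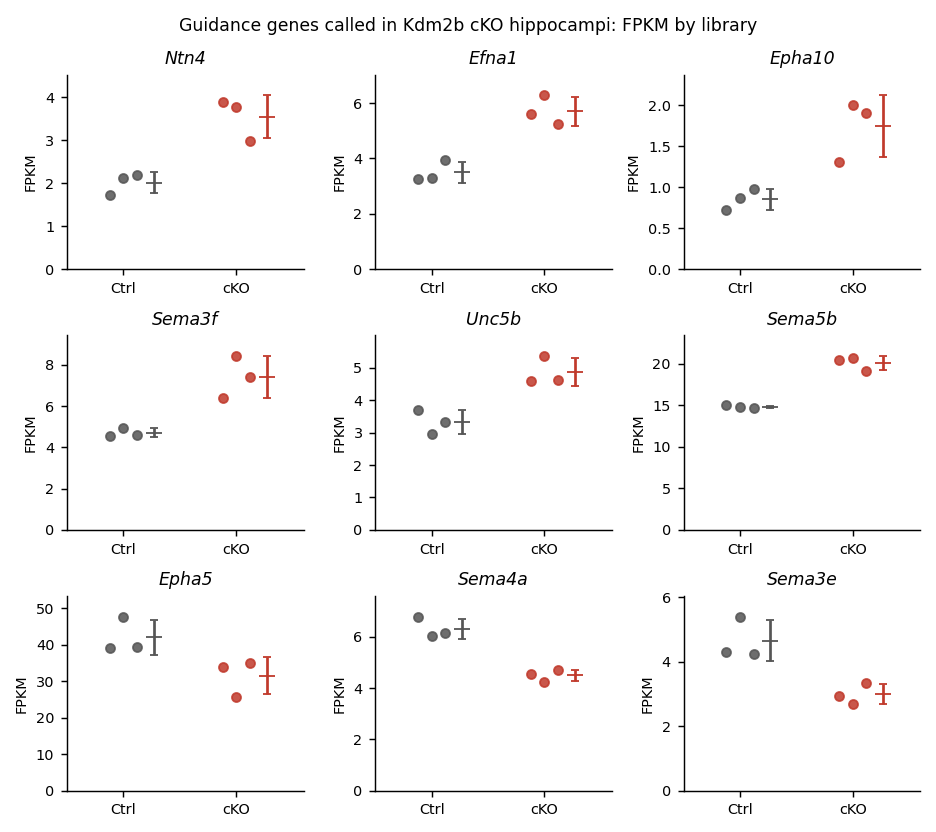
FPKM of the 9 guidance genes called in *Kdm2b* hippocampi, with each point 1 library (3 control in grey, 3 cKO in red) and the bar beside the points the mean with its SD; each vertical axis starts at 0. In every panel the cKO points lie wholly above (*Ntn4*, *Efna1*, *Epha10*, *Sema3f*, *Unc5b*, *Sema5b*) or wholly below (*Epha5*, *Sema4a*, *Sema3e*) the control points.

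Among receptors, *Epha10* and *Unc5b* rose and *Epha5* fell. *Epha10*, an Eph receptor whose kinase domain is thought to be inactive, was near the filter on low values at 0.721, 0.863 and 0.974 FPKM in controls and at 1.31, 2.01 and 1.91 in cKO hippocampi, a change of 0.56 ± 0.13 (adjusted p = 0.0353). *Unc5b*, a repulsive netrin receptor also known from vessels, was at 3.70, 2.96 and 3.32 and then 4.60, 5.35 and 4.64 FPKM, a change of 0.44 ± 0.10 (adjusted p = 0.0325). *Epha5*, a receptor for A-class ephrins and the most abundant gene of those called, was at 39.2, 47.6 and 39.3 FPKM in controls and at 33.9, 25.7 and 34.9 in cKO. The fall of 0.41 ± 0.12 (adjusted p = 0.0626) rested partly on the second library of each group, and it came to 0.28 without the second cKO library and to 0.32 without the second control, both under the fold threshold. Without the second cKO library the changes of *Sema4a* (-0.38), *Sema5b* (0.39) and *Unc5b* (0.38) also came under the fold threshold, so that 6 members were called, 5 of these 9 and 1 other. *Unc5b* was at 0.38 without the second control, and *Sema4a* at -0.37 without the first.

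No plexin was called in hippocampi, but 5 of the 8 tested had an adjusted p under 0.05 with changes under the fold threshold. Without a fold threshold 17 of the 65 members had such a p, against 8.27% of all genes, and 30 an unadjusted p under 0.05, against 23%. Of the A-class genes, *Plxna1*, *Plxna2* and *Plxna4* had lower values in cKO. *Plxna1* was at 52.0, 55.4 and 50.8 FPKM in controls and 42.4, 40.9 and 41.6 in cKO (-0.33 ± 0.05, adjusted p = 0.00623), *Plxna4* had a change of -0.39 ± 0.08 (adjusted p = 0.0160) and *Plxna2* one of -0.24 ± 0.06 (adjusted p = 0.0438). Both tested B-class genes, which bind class 4 semaphorins, had higher values, *Plxnb2* with 30.2, 28.3 and 29.4 FPKM in controls and 39.2, 41.4 and 35.7 in cKO (0.39 ± 0.06, adjusted p = 0.00815) and *Plxnb1* with a change of 0.23 ± 0.06 (adjusted p = 0.0437). The cKO and control libraries of these 5 genes did not overlap, as for 29.2% of all genes. *Plxna3*, *Plxnc1* and *Plxnd1* changed by -0.05 to 0.04. Reads of *Plxna4* and its antisense transcripts cannot be told apart where the library kit keeps no strand.

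An adjusted p under 0.05 with a change below the fold threshold was also found for *Ephb4*, *Robo1*, *Unc5a* and *Sema4f*. *Ephb4*, a receptor for *Efnb2* best known from veins, was at 3.64, 3.89 and 3.48 FPKM and then 5.05, 5.09 and 5.03 (0.38 ± 0.08, adjusted p = 0.0281), while *Efnb2* changed by -0.08 ± 0.09. *Robo1* was at 24.4, 29.8 and 26.1 FPKM in controls and 23.2, 20.1 and 20.6 in cKO (-0.31 ± 0.08, adjusted p = 0.0489), and *Robo2* showed -0.26 ± 0.07 with an adjusted p of 0.0524. *Unc5a* was at 20.8, 19.8 and 20.4 and then 17.4, 16.9 and 17.5 FPKM (-0.23 ± 0.05, adjusted p = 0.0343), opposite in sign to *Unc5b*, and *Sema4f* was given above. The Slits, ligands of the Robos, ranged from -0.24 (*Slit3*) to 0.13 (*Slit2*) and none was called. The 7 ephrins besides *Efna1* lay between -0.21 (*Efnb3*) and 0.17 (*Efna2*), the 11 tested Eph receptors not called between -0.25 (*Epha6*) and 0.38 (*Ephb4*), *Ntn1* and *Ntn3* at 0.22 and -0.09, and *Dcc*, *Unc5c* and *Unc5d* at -0.01, -0.21 and 0.27.

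Markers of other cells moved in the same hippocampi, and their part in the changes above was not tested. All 3 tested markers of intermediate progenitors were called higher, with summed FPKM of 27.6 to 32.1 in control and 66.2 to 77.5 in cKO hippocampi. Neural progenitor markers were called higher in 3 of 7 (median change 0.33), with sums of 982 to 1065 in control and 989 to 1115 in cKO. The 7 neuronal markers had a median change of -0.21 with none called, and their summed FPKM was below every control in each cKO library (2154 to 2283 in control and 1731 to 2006 in cKO). Choroid plexus markers were called higher in 3 of 4 tested (5.37 to 16.8 against 7.82 to 61.0), thalamic markers in 2 of 4 (26.1 to 29.9 against 36.9 to 40.1) and microglial markers in 2 of 5 (26.6 to 32.2 against 34.0 to 44.4). With adjusted p values none of the choroid plexus, 1 of the thalamic and 1 of the microglial markers was called. Cajal-Retzius markers were called higher in 1 of 5, and astrocyte markers lower in 1 of 7 and neocortical markers lower in 1 of 6. The 7 hippocampal markers were all detected and none was called.

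Because the CxxC finger binds unmethylated CpG, the CG letters before the start sites of the members were counted. Promoter windows of 250 bases before the start were taken from RefSeq (build GRCm38.p6), which matched 59 of the 69 genes with 75 windows, and the motif was CG, which reads the same on both strands. The median window held 15 CG over the members, against 6 over 32851 windows of all genes, and 69.3% of member windows held at least 10, against 37.8% of all. The windows of all genes include genes too low to be tested here. The 6 windows of the genes called higher in cKO hippocampi (5 of 6 genes matched) held 16 to 27, and the 6 windows of the 3 genes called lower held 2 to 20. Most of the latter belong to *Sema4a* alone, with 2 to 13. Members not called were not set apart, and a link between CG content and the changes was not tested. The windows shown here were chosen because their genes were called, have a single window and do not overlap the annotated gene: *Unc5b*, which rose (chr10:60831582-60831831, minus strand, 27 CG), and *Sema3e* (chr5:14025026-14025275, plus strand, 7 CG) and *Epha5* (chr5:84417383-84417632, minus strand, 20 CG), which fell. Each is written 5′ to 3′ towards the gene with CG in capitals.
Unc5b: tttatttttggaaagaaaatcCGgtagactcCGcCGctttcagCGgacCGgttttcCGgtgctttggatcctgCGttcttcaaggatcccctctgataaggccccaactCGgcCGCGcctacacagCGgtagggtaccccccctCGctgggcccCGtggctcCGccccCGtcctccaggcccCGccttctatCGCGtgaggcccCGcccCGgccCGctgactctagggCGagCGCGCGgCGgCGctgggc
Sema3e: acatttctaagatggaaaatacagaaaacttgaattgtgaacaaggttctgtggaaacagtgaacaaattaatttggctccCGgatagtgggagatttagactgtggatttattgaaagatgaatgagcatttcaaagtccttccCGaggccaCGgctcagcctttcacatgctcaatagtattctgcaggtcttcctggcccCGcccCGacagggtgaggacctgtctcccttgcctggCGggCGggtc
Epha5: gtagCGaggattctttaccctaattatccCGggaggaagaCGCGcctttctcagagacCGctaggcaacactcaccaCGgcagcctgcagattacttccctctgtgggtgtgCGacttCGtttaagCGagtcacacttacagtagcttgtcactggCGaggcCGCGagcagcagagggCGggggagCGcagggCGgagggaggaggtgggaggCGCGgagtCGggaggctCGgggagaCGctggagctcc

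*Sema3e* and *Epha5*, both lower in cKO, thus differed in CG content, and *Epha5* was nearer to *Unc5b*. In the coordinates given with the cortical and *Rnf2* tables *Unc5b* covers chr10:60762593-60831581, *Sema3e* covers chr5:14025276-14256689 and *Epha5* covers chr5:84054761-84417382. Whether KDM2B occupied these windows was not measured in the tables used here.

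In neurospheres more members moved and by more. Of 52 members tested, 19 were called, 11 higher and 8 lower in cKO, which is 36.5% of members against 24.6% of all 12224 genes (11.4% higher and 13.2% lower). With adjusted p values 17 were called, all but *Nrp2* and *Unc5d*, where 19.3% of all genes were, and 18 had an adjusted p under 0.05 at any fold, against 22.3%. The median change was 0.01 over members and -0.01 over all genes, and libraries did not overlap for 37 of 52 members, against 66.4% of all genes. Of those called, *Efna5* and *Unc5d* reached the filter of 0.5 FPKM only through the cKO group and *Epha3* and *Sema3d* only through the controls, so that they had to differ, and they are given as values with no test. Among the 48 members with means of at least 0.5 FPKM in both groups, 15 were called, 9 higher and 6 lower, against 23.6% of all genes filtered in this way. By family, *Efna2*, *Efna3* and *Efnb2* of the 8 ephrins rose and none fell, and of the Eph receptors *Epha4* fell and none rose. The other 17 members had means under 0.5 FPKM, among them all 3 Slits and the genes *Sema3e*, *Sema3f* and *Sema4a* that were called in hippocampi.

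*Efna3*, a lipid-anchored ephrin, showed the largest change of any member tested on the log2(FPKM + 1) scale. By the ratio of the means it rose 4.0 times, less than *Efna5* (18.3 times). The falls of *Sema3d* (5.84 times) and *Epha3* (4.08 times) were also larger by that ratio. *Efna3* was at 1.09 and 2.31 FPKM in the controls and at 7.0 and 6.58 in cKO neurospheres, a change of 1.57 ± 0.23 (adjusted p = 0.00792). *Efnb2*, a transmembrane ephrin of arteries and progenitors, was at 3.27 and 3.97 and then 6.21 and 7.33 FPKM (0.75 ± 0.14, adjusted p = 0.0156). *Efna5* was at 0.0464 and 0.0761 FPKM in controls and 1.03 and 1.21 in cKO, so it was barely present in control cultures. *Efna2* was called higher as well, with 0.51 ± 0.12.

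The receptor of *Sema3e*, *Plxnd1*, was at 4.76 and 5.36 FPKM in control and 10.4 and 11.9 in cKO neurospheres (1.00 ± 0.12, adjusted p = 0.00401), about 2.21 times higher by the means. *Sema3c* was at 2.19 and 2.64 and then 4.41 and 4.38 FPKM (0.66 ± 0.13, adjusted p = 0.0192), and its co-receptor *Nrp2* was called higher at 0.58 ± 0.17 (adjusted p = 0.0587). Of the 4 Unc5 receptors, *Unc5b*, at 1.54 and 1.43 and then 2.63 and 3.17 FPKM (0.65 ± 0.15, adjusted p = 0.0303), and *Unc5a*, at 0.57 ± 0.11, were called higher, and *Unc5d* was at 0.250 and 0.233 and then 0.900 and 0.729 FPKM. *Sema7a*, a lipid-anchored semaphorin, completed the genes called higher, at 0.43 ± 0.11. *Dcc*, the attractive netrin receptor, was at 6.36 ± 0.319 and 6.4 ± 0.226 FPKM (SD, n = 2 each).

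On the log2(FPKM + 1) scale the largest falls were those of *Epha4*, *Sema5a*, *Robo1* and *Plxnb3*. By the ratio of the means *Sema3d* (5.84 times) and *Epha3* (4.08 times) fell by more than *Epha4* (3.48 times). *Epha4* was at 6.31 and 7.37 FPKM in controls and 2.47 and 1.46 in cKO neurospheres (-1.42 ± 0.19, adjusted p = 0.00648). *Sema5a* was at 8.59 and 8.71 and then 3.44 and 1.96 (-1.41 ± 0.20, adjusted p = 0.00738), and *Robo1* at 6.29 and 5.36 and then 1.83 and 1.67 FPKM (-1.31 ± 0.13, adjusted p = 0.00277). *Plxnb3*, a plexin known from oligodendrocytes whose entry is shared with *Srpk3*, was at 9.32 and 12 and then 3.61 and 3.91 FPKM (-1.29 ± 0.14, adjusted p = 0.00352). The cKO libraries lay below the controls for each.

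*Sema3d* was at 1.46 and 1.52 FPKM in controls and 0.253 and 0.258 in cKO, and *Epha3* at 0.968 and 1.15 and then 0.350 and 0.169, both under the filter in cKO. *Sema4d*, a semaphorin of oligodendrocytes and immune cells, and its receptor *Plxnb1* were called lower at -0.62 ± 0.13 and -0.47 ± 0.12. *Plxnb2* was at 37.7 and 38.1 and then 51.5 and 47.6 FPKM (0.38 ± 0.08, adjusted p = 0.0267), under the fold threshold as in hippocampi. The other 32 members tested lay between -0.38 (*Sema6d*) and 0.35 (*Efnb1*).

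Markers of several cell types moved in the same cultures. Oligodendrocyte lineage markers were called lower for 6 of 8 (median change -1.45), although the sum, which *Olig1* and *Olig2* dominate, was 2534 to 2585 FPKM in control and 2460 to 2523 in cKO, and astrocyte markers for 6 of 7 (median -1.37, sums 869 to 916 against 499 to 535). Neuronal markers were called lower in 3 of 6 tested and higher in 1 (sums 232 to 243 against 171 to 200), interneuron markers higher in 2 of 3 (42.7 to 42.9 against 54.7 to 56.0), and neural progenitor markers higher in 2 of 7 and lower in 1 (3733 to 4150 against 5171 to 7028). Intermediate progenitor markers were called lower in 1 of 2 tested (54.1 to 55.7 against 16.8 to 21.4), opposite to hippocampi. Choroid plexus markers were called higher in 1 of 2 tested (0.304 to 0.379 against 10.1 to 12.9). The part of all these markers in the changes of *Plxnb3*, *Sema4d* and the others was not tested. Without the first control library, 17 members were called.

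**Figure D2:**
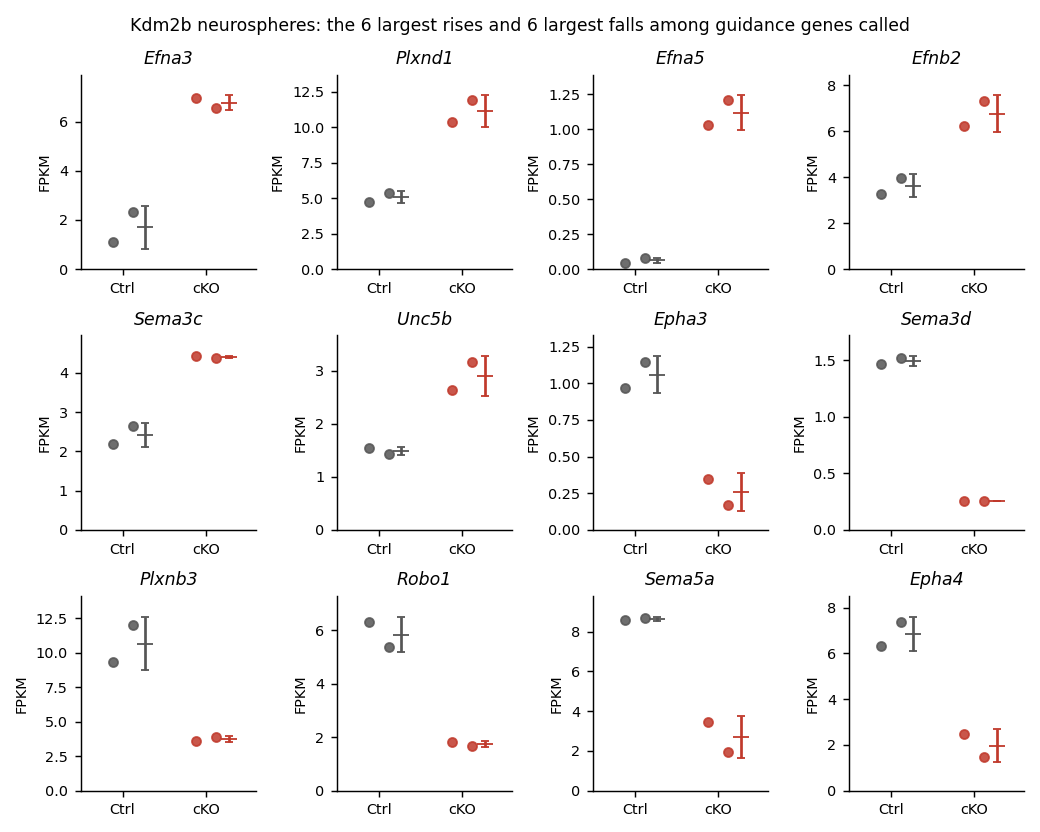
FPKM of the 6 largest rises and 6 largest falls, on the log2(FPKM + 1) scale, among guidance genes called in *Kdm2b* neurospheres. Each point is 1 library (2 control in grey, 2 cKO in red), and the bar beside the points is the mean with its SD. Each vertical axis starts at 0. The control and cKO points are apart in all 12 panels, and *Efna5* is close to 0 in both controls. *Efna5*, *Sema3d* and *Epha3* reached the filter through 1 group only.

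Tissue and culture differed in the response of many members. Both changes were compared as the interaction of genotype with table, over 51 members, and 21 differed at an adjusted p under 0.05 in limma (27% of the 11088 genes tested did), 11 with the higher change in neurospheres and 10 with the lower. The 11 were *Efna3*, *Efna5*, *Efnb2*, *Plxna1*, *Plxna2*, *Plxna4*, *Plxnd1*, *Nrp2*, *Sema3c*, *Sema7a* and *Unc5a*, and the 10 were *Epha2*, *Epha3*, *Epha4*, *Plxnb1*, *Robo1*, *Sema3d*, *Sema4b*, *Sema4d*, *Sema5a* and *Sema5b*. *Unc5a* had the smallest p of them, with a change of -0.23 in hippocampi and 0.57 in neurospheres and a difference of 0.80 ± 0.10 (adjusted p = 2.9e-04). *Sema5b*, called higher in hippocampi, was at 36.3 and 39.9 and then 38.2 and 35.1 FPKM in neurospheres, and the difference was -0.47 ± 0.09 (adjusted p = 0.00461). In neurospheres *Sema5b* had 3 entries, of which only that with the highest mean was used. Of the 9 members called in hippocampi and the 19 in neurospheres, *Unc5b* alone was called in both, higher in each, which is 11.1% of the first list and 5.26% of the second. *Sema3e*, *Sema3f* and *Sema4a* of the 9 were not tested in neurospheres and could not be shared. The share of all genes called in both was not computed, so this overlap has no background beside it. *Efna5*, *Epha3* and *Sema3d*, among the 21, reached the filter in neurospheres through a single group, as said above, so their differences are no test. The share of all genes given beside the 21 was not filtered by group either.

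**Figure D3:**
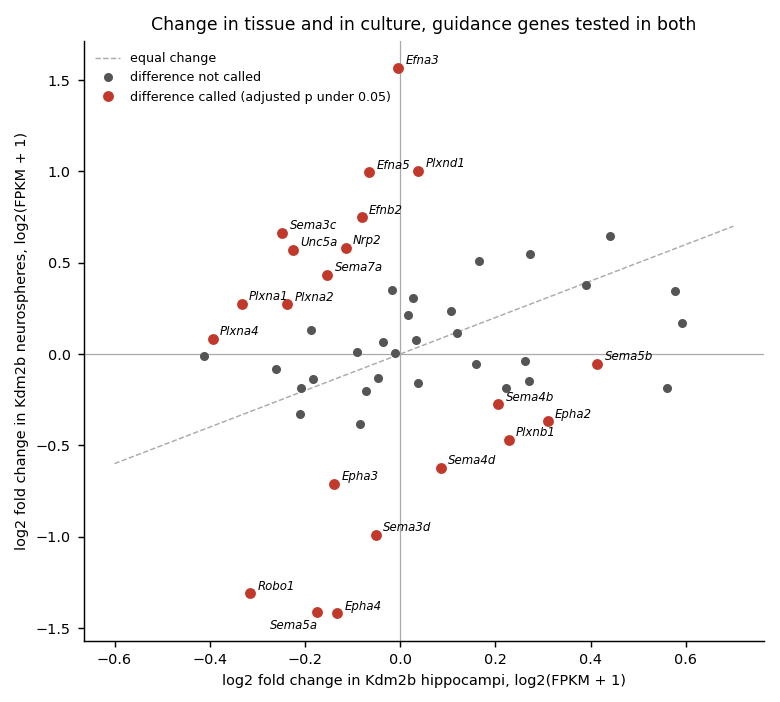
Change (log2 of FPKM + 1, cKO minus control) in *Kdm2b* hippocampi on the horizontal and in *Kdm2b* neurospheres on the vertical axis for the 51 guidance genes tested in both, with the dashed line where both changes are equal. The 21 red, named points differ between tissue and culture at an adjusted p under 0.05, and they reach 1.57 (*Efna3*) and -1.42 (*Epha4*) on the vertical axis while the horizontal range ends at 0.59. Of these, *Efna5*, *Epha3* and *Sema3d* reached the filter in neurospheres through a single group, so their differences are no test.

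In cortices 7 of 57 members tested were called, 3 higher (*Efna1*, *Epha8*, *Efna3*) and 4 lower (*Unc5a*, *Sema3c*, *Plxna3*, *Nrp1*). This is 12.3% of members against 7.01% of the 15691 genes tested (4.73% higher and 2.28% lower). With adjusted p values none of the members was called, against 0.427% of all genes, and 13 had an unadjusted p under 0.05 (12.8% of all genes did). With means of at least 0.5 FPKM in both groups 7 of 56 were called, against 5.8%. The median change was -0.06, and libraries did not overlap for 36 members, against 44.8% of all genes. On the recovered reads, limma-voom called 11 members, 5 higher and 6 lower, where it called 9.30% of all genes.

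*Efna1* rose here as in hippocampi. It was at 1.69 and 1.39 FPKM in control and 2.95 and 3.54 in cKO cortices, a change of 0.74 ± 0.12 (adjusted p = 0.115). *Epha8*, an Eph receptor, was at 1.01 and 0.868 and then 1.86 and 1.87 FPKM (0.56 ± 0.11, adjusted p = 0.156). *Efna3* was at 20.4 and 14.8 and then 22.8 and 25.6 FPKM (0.45 ± 0.16, adjusted p = 0.350), and it was not called under 6 of its 15 alternatives, with 0.23 and 0.37 where the second control or the second cKO library was left out.

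*Unc5a* was at 14.6 and 13.7 FPKM in control and 9.25 and 9.25 in cKO cortices, a fall of 0.56 ± 0.07 on the log2 scale (adjusted p = 0.0858). *Sema3c* was at 13.6 and 11.7 and then 8.54 and 9.03 FPKM (-0.48 ± 0.10, adjusted p = 0.156). The co-receptor *Nrp1* was at 17.7 and 16.2 and then 13.6 and 11 FPKM (-0.44 ± 0.12, adjusted p = 0.246), and *Plxna3*, an X-linked plexin, at 34.6 and 39.9 and then 27.4 and 25.9 FPKM (-0.47 ± 0.10, adjusted p = 0.165). The cKO libraries lay below both controls for all 4. Single libraries decided some of these calls: *Sema3c* and *Nrp1* came to -0.38 without the first control, *Plxna3* to -0.37 without the second, and *Nrp1* to -0.30 without the second cKO library. The first control cortex carried the Y-linked *Ddx3y* and no *Xist* while the other 3 libraries carried *Xist*, and the part of sex in the *Plxna3* values was not tested.

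*Nrp2* had the lowest estimate in cortices, -0.94 ± 0.37, and was not called (limma adjusted p = 0.393). The control values of 6.25 and 2.30 FPKM were far apart, and the cKO values were 1.6 and 1.51. The first control also held more *Slit3* (0.905 against 0.256 FPKM in the second), which was too low to be tested. *Unc5a* and *Sema3c*, lower in cortices, were called higher in neurospheres, while *Efna3* was called higher in both.

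Markers of other cell types moved with genotype in the cortical libraries. All 5 tested meningeal markers were called higher in cKO (median change 1.99, summed FPKM 1.29 to 1.85 in control and 17.1 to 24.9 in cKO), as were 3 of 6 endothelial markers (34.8 to 35.4 against 55.7 to 56.5) 3 of 4 blood markers (432 to 450 against 620 to 707), 2 of 5 microglial markers (9.03 to 9.66 against 12.1 to 17.9), 1 of 4 mural markers (24.4 to 24.6 against 31.9 to 34.4) and 1 of 4 striatal markers (20.8 to 23.4 against 31.1 to 35.9). With adjusted p values 2 meningeal markers and 1 of 5 astrocyte markers were called higher, and no marker of another list. Intermediate progenitor markers were called higher in 1 of 4 (123.2 to 123.5 against 136 to 156), neural progenitor markers in 1 of 7 and oligodendrocyte lineage markers in 1 of 8. Hippocampal markers were called lower in 1 of 7. None of 7 neuronal markers was called (1600 to 1621 against 1500 to 1505). The part of all these markers in the rise of *Efna1* and the other cortical changes was not tested.

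Of 57 members compared between hippocampi and cortices, 3 had a different change at an adjusted p under 0.05 (1.64% of 10727 genes did), and 21 at an unadjusted p under 0.05 (14.1% of all genes did). All 3 had estimates above 0 in hippocampi and below 0 in cortices. *Sema3f* was at 12.7 and 13.5 FPKM in control and 12.2 and 12.8 in cKO cortices, a difference of -0.61 ± 0.14 from the hippocampal change (adjusted p = 0.0490). For *Sema5b*, at 8.33 and 7.64 and then 7.58 and 7.2 FPKM, the difference was -0.51 ± 0.09 (adjusted p = 0.0185), and for *Plxnb1* it was -0.42 ± 0.09 (adjusted p = 0.0455). These calls depended on single libraries: the count was 0 without control hippocampus 1 or 3, without cKO hippocampus 2 and without either cKO cortex, and 1 without control hippocampus 2. *Robo1*, lower in cKO hippocampi, had a change of 0.30 ± 0.13 in cortices and an adjusted p of 0.0747 for the difference.

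**Figure D4:**
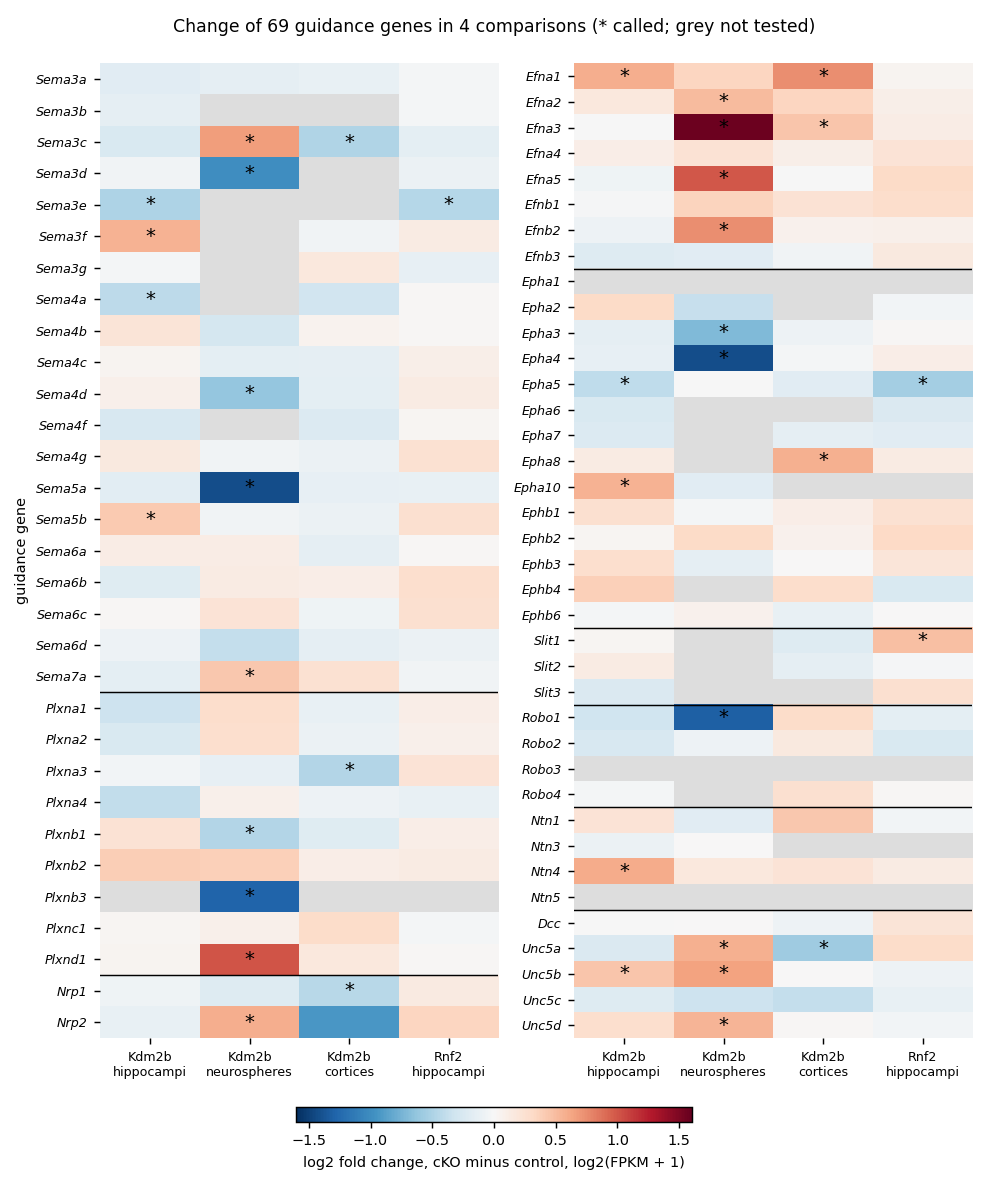
Change of all 69 guidance genes (rows, grouped by family with black lines between families) in the 4 comparisons (columns), as log2 fold change of FPKM + 1, cKO minus control, from blue (lower in cKO) to red (higher), with a star where the gene was called and grey where it was not tested. The stars number 9, 19, 7 and 3 from left to right, and *Epha5* and *Sema3e* carry a star in both hippocampal columns.

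In *Rnf2* hippocampi 3 of 63 members tested were called, 1 higher and 2 lower, which is 4.76% against 4.71% of the 15764 genes tested (2.86% higher and 1.85% lower), near the background. Rescaled to the same FPKM total, 1 was called higher and 1 lower. With adjusted p values no member and 0% of all genes were called, and 3 members had an unadjusted p under 0.05 (7.11% of all genes did). With means of at least 0.5 FPKM in both groups 3 of 62 were called, against 4.05%. Libraries did not overlap for 20 members, against 38.3% of all genes. The 3 were *Slit1*, which rose, and *Sema3e* and *Epha5*, which fell.

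*Slit1*, a secreted ligand of the Robos, was at 7.04 and 8.38 FPKM in control and 10.4 and 11.9 in *Rnf2* cKO hippocampi, a change of 0.48 ± 0.14 (adjusted p = 0.659). In *Kdm2b* hippocampi it changed by 0.03 ± 0.10, and the difference was not called (adjusted p = 0.222). *Epha5* was at 24.1 and 25.5 and then 18.7 and 15.0 FPKM (-0.54 ± 0.14, adjusted p = 0.624). *Sema3e* was at 2.47 and 2.94 and then 1.96 and 1.44 FPKM (-0.46 ± 0.18, adjusted p = 0.691).

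Meningeal markers were called lower in 3 of 5 tested in the same libraries (summed FPKM 27.5 in both controls and 13.0 to 19.9 in cKO). Choroid plexus markers, none of 4 called, summed to 13.1 to 50.9 in control and 8.66 to 241 in cKO. Astrocyte markers, none of 7 called, summed to 191 to 223 and 168 to 181. The hippocampal, interneuron, Cajal-Retzius, oligodendrocyte and striatal lists each had 1 call higher, and the mural and blood lists 1 lower. With adjusted p values no marker was called. The part of all these markers in the changes of the 3 genes was not tested. The 2 genes that fell were among the 3 called lower in *Kdm2b* hippocampi, and no library is common to the comparisons. The share of all genes called lower in both was not computed, so this overlap has no background beside it. *Sema3e* lost its call in *Rnf2* hippocampi under 7 of its 15 alternatives. The *Rnf2* change differed from the *Kdm2b* change by -0.13 ± 0.19 for *Epha5* and by 0.04 ± 0.19 for *Sema3e* (adjusted p = 0.798 and 0.950), errors that leave room for differences of the size of the changes. In cortices *Epha5* was at 18.1 and 18.8 and then 17.0 and 15.4 FPKM (-0.18 ± 0.08, not called), and in neurospheres at 16.3 and 16.4 and then 17.9 and 14.8. *Sema3e* was under the filter in both, with 0.362 and 0.517 and then 0.280 and 0.346 FPKM in cortices. The other 7 members called in *Kdm2b* hippocampi were not called in *Rnf2* hippocampi, where *Epha10* was too low to be tested and the rest changed by -0.08 (*Unc5b*) to 0.26 (*Sema5b*).

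No member differed between *Kdm2b* and *Rnf2* hippocampi at an adjusted p under 0.05 in limma, where 0.647% of 11285 genes did, and 13 of 63 differed at an unadjusted p under 0.05, against 15.5% of all genes. The lowest adjusted p belonged to *Unc5a*, with a change of -0.23 in *Kdm2b* and 0.29 in *Rnf2* hippocampi (difference 0.51 ± 0.12, adjusted p = 0.0721). The *Rnf2* counts rested on single libraries. The first *Rnf2* control held less *Dcc* than the second (9.67 against 23.4 FPKM), and less *Nrp1* (32.4 against 54.9) and *Nrp2* (33.3 against 54.6), and the cKO libraries lay between the controls for *Dcc* and *Nrp1*. Without the first control 1 member was called (6.59% of all genes), without the second control 9 (10.03%), without the first cKO library 2 (3.28%) and without the second cKO library none (2.97%). *Sema3e* lost its call in each of these cases, *Slit1* without the first control (0.37) or the second cKO library (0.39), and *Epha5* without the second cKO library (-0.39). The same choices gave 1 and 9 members whose change differed from *Kdm2b* hippocampi without the first and the second control (2.49% and 4.43% of all genes), and 0 in the other 8 cases.

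**Figure D5:**
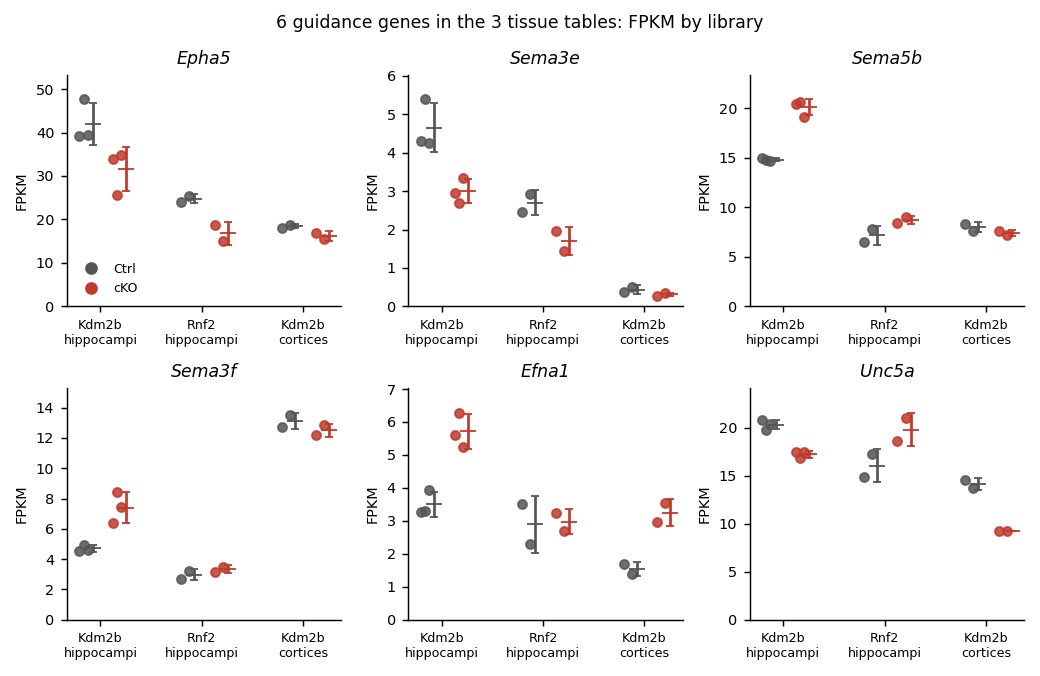
FPKM of *Epha5*, *Sema3e*, *Sema5b*, *Sema3f*, *Efna1* and *Unc5a* in *Kdm2b* hippocampi, *Rnf2* hippocampi and *Kdm2b* cortices, with each point 1 library (control in grey, cKO in red) and the bar beside the points the mean with its SD; axes start at 0, and levels are not comparable between the 3 tables. *Epha5* and *Sema3e* are lower in cKO in both hippocampal sets, *Sema5b* and *Sema3f* separate most clearly in *Kdm2b* hippocampi, and *Unc5a* in cKO cortices is at 9.25 in both libraries.

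Genes that act beside or behind the receptors were described from lists. Of 52 transducers of guidance signals, 2 were called lower and none higher in *Kdm2b* hippocampi (median change -0.07), where 2.25% of all genes were called lower and 3.89% higher. They were the kinase *Pak3*, at -0.44 (adjusted p = 0.0375), and the small GTPase *Rnd1*, which binds plexins, at -0.49 (adjusted p = 0.0180). In neurospheres 5 of 51 were called higher and 10 lower, against 11.4% and 13.2% of all genes, with *Dpysl5*, a collapsin response mediator, at 0.95 and *Chn2*, *Rnd2* and *Mical2* between -1.10 and -1.16. *Rnd1* was called higher in neurospheres (0.53), opposite to hippocampi. *Pak3* was called lower there too (-0.49) and in cortices (-0.61), where *Mical2* (-0.59) was the other of 2 called lower (2.28% of all genes were). In *Rnf2* hippocampi, of 52 tested, *Evl*, an actin regulator, was called higher at 0.50 and *Rnd1* lower at -0.54, where 4.71% of all genes were called. With adjusted p values 3 transducers were called higher and 10 lower in neurospheres, and none in cortices or *Rnf2* hippocampi.

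Of 31 other guidance cues and receptors, 3 were called higher and 3 lower in *Kdm2b* hippocampi, against 3.89% and 2.25% of all genes. Higher were the hedgehog co-receptors *Boc* (0.52) and *Cdon* (0.46) and the chemokine receptor *Cxcr4* (0.47), and lower were the adhesion molecules *Cntn1* (-0.64), *Chl1* (-0.41) and *Cntn4* (-0.41). In neurospheres 3 of 28 were called higher and 5 lower, against 11.4% and 13.2% of all genes, with *Cdon* the farthest at 2.01 (12.9 to 55.1 FPKM by the means) and *Cntn4* again lower at -0.64. In cortices *Cxcl12*, the ligand of *Cxcr4* that meningeal cells also make, was called higher at 0.93 and the receptor *Met* lower at -0.61, of 29 tested (7.01% of all genes were called). None of the 31 was called in *Rnf2* hippocampi, where 4.71% of all genes were. With adjusted p values the counts were 3 higher and 2 lower in *Kdm2b* hippocampi, 3 higher and 3 lower in neurospheres, and none in cortices.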

How the data were processed

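Paired reads of poly(A) RNA from hippocampi and neurospheres were trimmed (cutadapt), mapped to the mm10 build (STAR) and turned by the authors into the deposited FPKM values with Cufflinks (version 2.2.1 in the submitters' processing notes). How the deposited FPKM values of the cortical and *Rnf2* tables were made is not given in the sources used here, beyond the tools and builds of those notes, which also name DESeq2 and GRCm38. There, FPKM times gene length came in steps of 1 read for 100% of low values (within 0.05 reads), which gave the reads on each gene.

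Groups were taken from the sample labels. Entries without a gene name (1.08% to 1.16% of FPKM in hippocampi, 0.876% to 29.3% in neurospheres, at most 0.102% elsewhere) were dropped. Where a name had several entries, that with the highest mean was used. An entry naming several genes was kept as a single entry, under the first member it named. Without a member it stood under a gene of the lists or its joined name. On log2(FPKM + 1), genes averaging 0.5 FPKM or more across a table were fitted by limma (3.58.1, R 4.3.3, trended eBayes), and p values were adjusted by Benjamini-Hochberg over all genes of the table. A call required a size above 0.4 (log2) and an unadjusted p under 0.05. The change was compared between tables by an interaction term, called at an adjusted p under 0.05. The script was tested on simulated data.

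The members and lists were chosen with earlier results of these data known. Named with values were all members called in *Kdm2b* hippocampi, the 6 largest rises and falls called elsewhere, members called in *Kdm2b* hippocampi whose change differed between tables, the highest member of each family and the targeted genes. Other members given with values were named after their values were seen. Alternatives were another pseudocount, other filters, scalings and thresholds, eBayes without a trend, summed entries, the replicate number as a block, limma-voom on the recovered reads and each library left out. Deviations of same-numbered samples had correlations of -0.103 to 0.0495 in hippocampi, -0.277 in neurospheres, -0.0528 in cortices and 0.161 in *Rnf2* hippocampi. Outside *Kdm2b* hippocampi the 2 pairs of a comparison mirror each other, so these values cannot decide whether the numbers pair the samples. The reported fits have no block.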

Additional observations from a re-analysis of the deposited data

Results flagged for a closer look

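The changes of *Sema5b* and *Sema3f*, both called higher in *Kdm2b* hippocampi, differed in other *Kdm2b* samples by a test of the difference itself (limma, interaction of genotype and table, adjusted over all genes). For *Sema5b* the change in neurospheres minus that in hippocampi was -0.46814 (SE 0.09, adjusted p = 0.00461), and the change in cortices minus that in hippocampi was -0.51245 (SE 0.09, adjusted p = 0.0185). Its cKO libraries lay above the controls in all 3 hippocampi, and in neither of the other tables was it called. Only the highest of the 3 neurosphere entries of *Sema5b* was used. For *Sema3f* the change in cortices minus that in hippocampi was -0.61234 (SE 0.14, adjusted p = 0.0490), and all 3 cKO hippocampi but neither cKO cortex lay above every control. Neither cortical difference was called when any 1 of 5 libraries (control hippocampus 1 or 3, cKO hippocampus 2, either cKO cortex) was left out.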

How the results depend on the processing

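Of 474 repeats of named changes under the alternatives, 430 stayed called, 38 lost the call, none reversed, and in 6 the gene was no longer tested (*Efna5*, *Epha3* and *Sema3d* in neurospheres). These changes were named because they were called, and a repeat without a fold threshold could not lose a call. The repeats of *Efna5*, *Epha3* and *Sema3d*, which had to differ by the filter, are counted as well. The totals are therefore no test of stability. Counts of members called that moved were 30 in *Kdm2b* hippocampi without a fold threshold, and in cortices 0 with adjusted p values, 13 without a fold threshold and 11 with limma-voom. In *Rnf2* hippocampi adjusted p values gave 0. Of the differences between tables, the 3 for cortices became 1 without a filter, 1 with eBayes without a trend, 0 with the replicate block and 21 with unadjusted p values, and the 0 for *Rnf2* hippocampi became 13 with unadjusted p values. With each library left out the counts ranged from 6 to 11 in *Kdm2b* hippocampi, 16 to 19 in neurospheres, 5 to 7 in cortices and 0 to 9 in *Rnf2* hippocampi, and the differences from 17 to 25 for neurospheres, 0 to 4 for cortices and 0 to 9 for *Rnf2* hippocampi. Where this left 1 library in a group, it was assumed to vary like the others. Whether the replicate numbers pair the samples is not known from the labels. The replicate block gave 9 members called in *Kdm2b* hippocampi, 18 in neurospheres, 8 in cortices and 3 in *Rnf2* hippocampi, and differences for 18, 0 and 0 members. With the numbers crossed, chosen after seeing the data, neurospheres gave 19. Rescaling to the same FPKM total moved the median of all genes in neurospheres by 0.11 on the log2 scale and left 16 called, all of them called before, 10 higher and 6 lower. With means of at least 0.5 FPKM required in both groups, also chosen after seeing the data, 9, 15, 7 and 3 members were called in the order above. Groups of 2 or 3 libraries limit every count.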
